A study of Mus musculus with 4 samples.

Results

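The genes described here are beta-catenin, the TCF/LEF factors that carry it to DNA, and 3 zinc finger factors of the Sp family, measured in mouse embryonic epidermis with and without activated beta-catenin. The members were Ctnnb1, Lef1, Tcf7, Tcf7l1, Tcf7l2, Sp5, Sp6 and Sp8. Every probe set that the array's annotation assigns to exactly 1 of these 8 genes was taken, which gave 17 of 45037 probe sets and covered 7 of the 18193 genes that the array names in this way. That annotation assigned none to Tcf7. The authors' deposited list of differing probe sets named 5 further ones, 2 of Tcf7, 2 of Lef1 and 1 of Tcf7l2. Because that list holds only probe sets that differed at least 2-fold between these same arrays, these 5 are given as descriptions, with no test and in no count of calls.

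The mutant embryos carried KRT14-Cre Ctnnb1(Ex3)fl/+: Cre recombinase driven by the keratin 14 promoter, and 1 copy of Ctnnb1 whose exon 3 lies between recombination sites, beside 1 copy without them. The controls were littermates whose genotype the labels do not give further. Epidermis was parted from dermis of dorsal skin with dispase at E15.5, in the later part of gestation, and total RNA of 2 mutant and 2 control embryos was hybridised to 4 Affymetrix arrays, 1 embryo to an array. The promoter confines Cre to keratin 14 expressing cells and their descendants, whereas the RNA came from all cells of the separated sheet. A fall in the number of cells of a type and a fall in RNA per cell cannot be told apart in such bulk RNA, and the same holds for rises. The deposited signal is a linear value scaled to the same trimmed mean on every array.

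Beta-catenin has 2 pools, one at cadherin junctions and one that enters the nucleus when Wnt signalling stops its destruction. Exon 3 encodes the residues whose phosphorylation marks the protein for destruction, so the product without it is stable. In the nucleus it binds TCF/LEF proteins, which recognise short DNA words and act as repressors with Groucho/TLE proteins until beta-catenin is bound. Lef1 and Tcf7 mostly serve as activators and are themselves Wnt targets in several tissues, while Tcf7l1 is best known as a repressor, in skin as a factor of progenitor and stem cells. Sp5 and Sp8 are zinc finger factors induced by Wnt signals in the mouse embryo, and Sp6, also called epiprofin, acts in tooth, limb and hair follicle epithelium.

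The DNA just before the annotated start of a member is shown for 4 members, Sp5, Sp8 and Lef1, whose signals rose, and Tcf7l1, whose signal did not pass the test. The sequences are from RefSeq, build GRCm38.p6, written along the gene's own strand and ending at the base before the most upstream annotated start. The Sp8 stretch is shorter, since it ends where the annotated gene begins. Capitals mark matches to the TCF/LEF words CTTTGAA or CTTTGAT or CTTTGTA or CTTTGTT, on either strand.
Sp5, chr2:70474673-70474922, plus strand: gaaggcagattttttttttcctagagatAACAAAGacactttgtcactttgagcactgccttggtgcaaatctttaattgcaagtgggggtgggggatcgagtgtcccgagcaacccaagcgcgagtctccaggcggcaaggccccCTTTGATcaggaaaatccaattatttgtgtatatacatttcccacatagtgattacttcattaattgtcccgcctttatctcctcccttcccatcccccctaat
Sp8, chr12:118846079-118846287, plus strand: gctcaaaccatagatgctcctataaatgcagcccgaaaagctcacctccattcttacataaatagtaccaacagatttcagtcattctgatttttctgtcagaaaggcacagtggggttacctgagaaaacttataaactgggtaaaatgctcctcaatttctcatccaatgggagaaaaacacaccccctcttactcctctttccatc
Lef1, chr3:131110047-131110296, plus strand: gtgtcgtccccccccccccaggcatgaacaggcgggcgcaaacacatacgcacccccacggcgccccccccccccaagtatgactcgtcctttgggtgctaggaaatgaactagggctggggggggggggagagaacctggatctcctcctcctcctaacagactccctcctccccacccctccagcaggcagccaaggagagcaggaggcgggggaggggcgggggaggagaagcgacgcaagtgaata
Tcf7l1, chr6:72789046-72789295, minus strand: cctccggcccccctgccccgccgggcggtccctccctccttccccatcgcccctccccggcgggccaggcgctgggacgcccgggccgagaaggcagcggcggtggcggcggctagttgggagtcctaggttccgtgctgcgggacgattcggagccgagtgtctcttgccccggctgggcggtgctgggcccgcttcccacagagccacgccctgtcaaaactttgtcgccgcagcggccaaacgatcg

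The 250 bases upstream of the start held at least 1 of these words in 14.8% of the 32851 mouse windows in the same table, and 2 or more in 1.43%. Sp5 held 2, AACAAAG at 222 to 216 bases before the start, which is CTTTGTT on the other strand, and CTTTGAT at 104 to 98 bases. Of 15 windows for the 7 members that had any, 4 windows of 4 genes held a word: Sp5, 1 of 4 windows of Lef1, 1 of 2 of Tcf7l2 and 1 of 3 of Sp8. Those of Lef1, Tcf7l2 and Sp8 lay before annotated starts downstream of the gene's most upstream one. The 14.8% is a share of windows, not of genes. The windows of Ctnnb1, Tcf7 and Tcf7l1 held none. The GC box GGGCGG, searched on both strands as the word that Sp1 is known to bind, occurred in 32.7% of all windows, 2 times in the Tcf7l1 window, 1 time in the Lef1 stretch and not in the Sp5 or Sp8 stretches printed above. A matching word is a description of the letters, not a binding site.

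Taken over the members, transcripts of beta-catenin itself, of the activator Lef1 and of all 3 Sp factors were higher in mutant epidermis, and those of Tcf7l1 and Tcf7l2 did not pass the test. Of the 17 probe sets, 16 were tested and 1, of Sp6, was dim on all 4 arrays. In the limma fit 10 were higher, 0 were lower and 6 did not pass an adjusted p of 0.05. None was lower at an unadjusted p under 0.05 either. Over all 28434 probe sets tested, 18.9% were higher, 20.5% were lower and 39.4% changed in either direction, a background that is itself large. Among the tested member probe sets 62.5% were higher. These 10 belong to only 5 genes, and the members were chosen with earlier results of these data known. The probe set of Sp8, 1 of the 10, was above background in mutants only. It entered the test through the mutant arrays and could not have been called lower. The share is therefore a description, not a test of the members against the background. The median log2 fold change, mutant over control, was 0.76 over the 16 tested members and -0.026 over all probe sets. On 12 of the 16 both mutants lay above both controls, and on 0 both lay below, against 34.2% and 37.5% of all probe sets. The 12 were the 10 that rose and 2 of Tcf7l2. Median array signals were 30.1 and 28.6 in mutants and 26.7 and 27.6 in controls, and the correlation of arrays over all probe sets was 0.970 for the mutants, 0.972 for the controls and 0.813 to 0.815 across the groups.

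**Figure D1:**
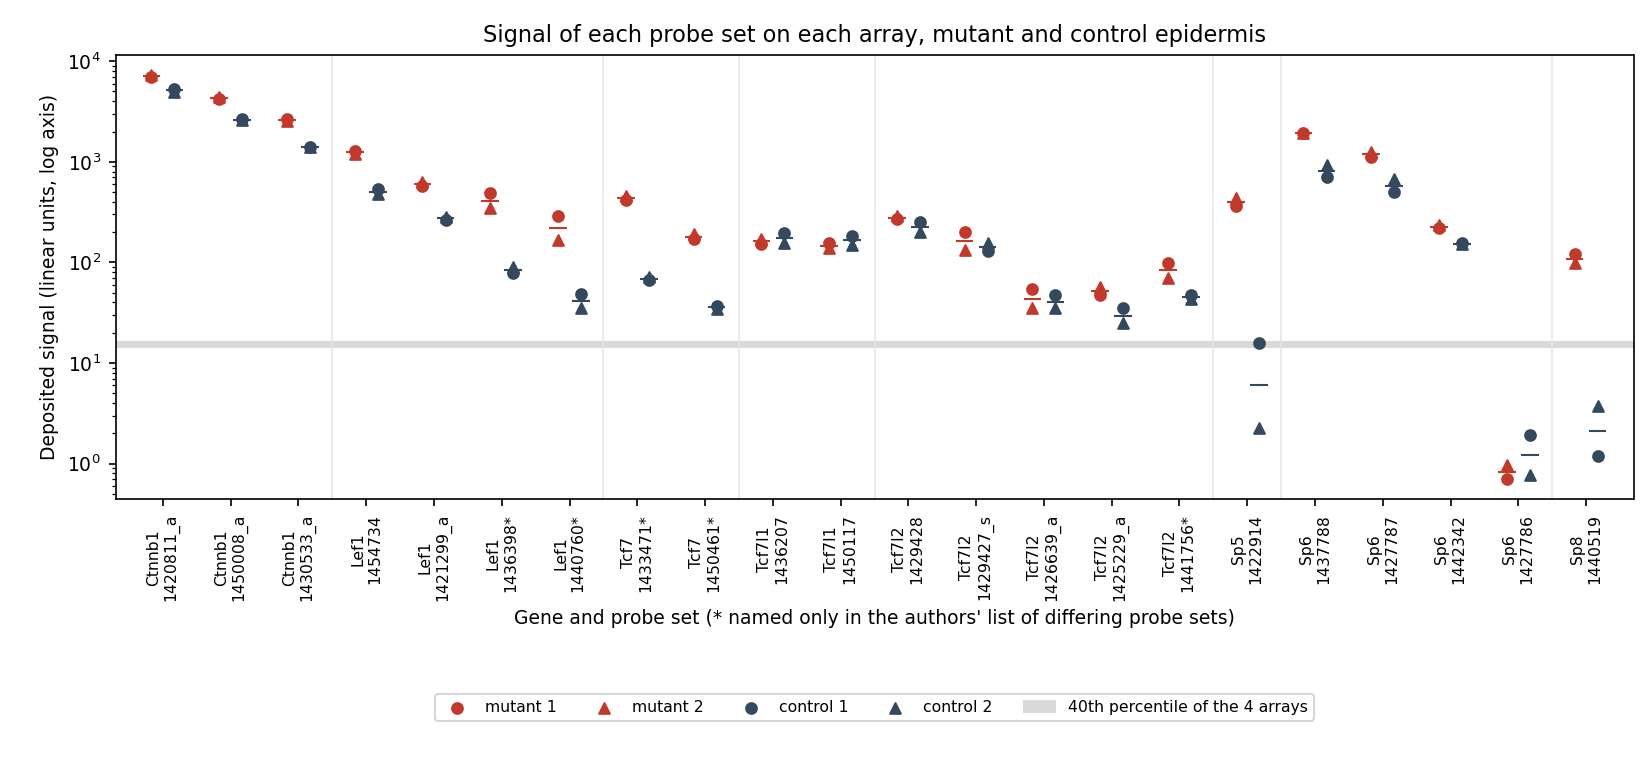
Deposited signal (vertical axis, linear units on a log scale) of every probe set of the members on each of the 2 mutant arrays (red, left) and 2 control arrays (dark blue, right); short lines are geometric means and the grey band spans the 40th percentiles of the 4 arrays, 14.4 to 16.1. Signals can be compared between arrays within a probe set but not between probe sets, and the widest gaps between the groups are those of Sp5 and Sp8, whose controls lie at or below the band.

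Ctnnb1 rose on all 3 of its probe sets, by less than 2-fold on each. Probe set 1420811_a_at read 6907 and 7323 in mutants, against 5311 and 4940 in controls, with means of 7115 ± 294 and 5126 ± 263 (SD, n = 2 each). The log2 fold change was 0.47 ± 0.08 (SE; limma adjusted p = 0.00306; 95% interval 0.28 to 0.66), and this call was lost when the fit's spread was not allowed to vary with intensity (adjusted p = 0.0610). On 1450008_a_at the mutants read 4220 and 4408 and the controls 2645 and 2600, a log2 fold change of 0.72 ± 0.08 (limma adjusted p = 0.000305). The third, 1430533_a_at, read 2653 and 2554 in mutants and 1392 and 1417 in controls, a log2 fold change of 0.89 ± 0.08 (limma adjusted p = 0.000120). On each of the 3 both mutants lay above both controls, and arrays of a group differed by at most 0.10 log2 units. The probe sets gave unequal sizes of change, 1.39-fold on the first and 1.85-fold on the third, with 95% intervals that do not overlap (0.28 to 0.66 and 0.70 to 1.08). The place of the probes relative to exon 3 was not analysed here, so whether the signals read transcripts of both alleles is not known from them, and they do not check the deletion. None of the 3 was in the authors' list of differences of at least 2-fold.

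Lef1, best known as an activator, rose on both tested probe sets. Lef1 on 1454734_at read 1287 and 1197 in mutants, against 539 and 476 in controls. Its log2 fold change was 1.29 ± 0.10 (limma adjusted p = 5.9e-05; 95% interval 1.05 to 1.53), which is 2.45-fold. Both mutants lay more than 2-fold above both controls there. On 1421299_a_at Lef1 read 575 and 629 in mutants and 266 and 285 in controls, 2.18-fold higher (log2 fold change 1.13 ± 0.11, limma adjusted p = 0.000154). The Lef1 probe sets named only in the authors' list read 489 and 347 in mutants, against 78.5 and 90.5 in controls, on 1436398_at, and 290 and 169 in mutants, against 48.3 and 35.5 in controls, on 1440760_at. Their log2 differences of 2.29 and 2.42 stand above the tested ones, from a list that holds only differences of at least 2-fold, and mutant 1 read above mutant 2 on both.

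Tcf7, which together with Lef1 is best known as an activator, was read only by probe sets from the authors' list. On 1433471_at the signals were 419 and 458 in mutants, against 67.0 and 71.1 in controls, a log2 difference of 2.67. On 1450461_at they were 170 and 191 in mutants, against 36.8 and 34.7 in controls, a log2 difference of 2.33. In both, arrays of a group lay within 0.17 log2 units of each other, and the groups were far apart. Since a Tcf7 probe set that did not differ 2-fold could not be in that list, how Tcf7 changed over all its probe sets was not analysed here.

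Tcf7l1, formerly Tcf3, the repressor of the family, did not pass the test on either probe set. It read 153 and 170 in mutants, against 195 and 155 in controls, on 1436207_at, a log2 fold change of -0.11 ± 0.16 (limma adjusted p = 0.625; 95% interval -0.47 to 0.26). On 1450117_at it read 155 and 138 in mutants, against 184 and 149 in controls, a log2 fold change of -0.18 ± 0.16 (limma adjusted p = 0.405; 95% interval -0.55 to 0.19). The groups overlapped on both, with control 1 the highest of the 4 arrays each time. Without control 1 the first of these turned to 0.057, still far from the threshold (limma adjusted p = 0.843). The intervals leave room for a fall of up to 0.55 log2 units, and hold no rise beyond 0.26.

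Tcf7l2, the TCF protein best known from intestinal epithelium, had 4 tested probe sets and none passed. On 1429428_at, with 269 and 290 in mutants against 252 and 201 in controls, the groups did not overlap, and the log2 fold change was 0.31 ± 0.14 (limma adjusted p = 0.125; 95% interval -0.023 to 0.64). On 1425229_a_at, with 47.8 and 56.8 in mutants against 35.4 and 24.8 in controls, the log2 fold change was 0.81 ± 0.28 (limma adjusted p = 0.0530; 95% interval 0.16 to 1.47). That value lay close to the threshold and passed it without control 1 (log2 fold change 1.07, limma adjusted p = 0.0456) and with 16 added to every signal (0.57, limma adjusted p = 0.0435). On the other two, 1429427_s_at read 201 and 134 in mutants and 131 and 155 in controls (log2 fold change 0.20 ± 0.21, limma adjusted p = 0.475), and 1426639_a_at read 54.1 and 35.1 in mutants and 47.5 and 35.1 in controls (0.094 ± 0.30, limma adjusted p = 0.831). The groups overlapped on both, and the _s suffix marks a probe set whose probes may match other transcripts too. Without mutant 1 these last values turned to -0.089 and -0.22. The probe set from the authors' list, 1441756_at, read 98.6 and 70.8 in mutants, against 47.3 and 43.5 in controls.

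Genes were also set against each other within arrays, as differences of log2 signal. With the probe set of highest mean signal for each gene, the log2 signal of Lef1 minus that of Tcf7l1, set to 0 at the control mean, was 1.53 and 1.27 in mutants and -0.075 and 0.075 in controls. The same difference of Lef1 and Tcf7l2 was 1.09 and 0.87 in mutants and -0.074 and 0.074 in controls. For Lef1 over Ctnnb1 it was 0.91 and 0.73 in mutants and 0.038 and -0.038 in controls. The size depended on the probe sets chosen. Over all pairs of tested probe sets, the mutant minus control value ran between 1.23 and 1.47 for Lef1 over Tcf7l1 (4 pairs), between 0.32 and 1.20 for Lef1 over Tcf7l2 (8 pairs) and between 0.24 and 0.82 for Lef1 over Ctnnb1 (6 pairs). All of these lay on the side of a larger change of Lef1, as a description with no test, and none compares the levels of the transcripts.

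**Figure D2:**
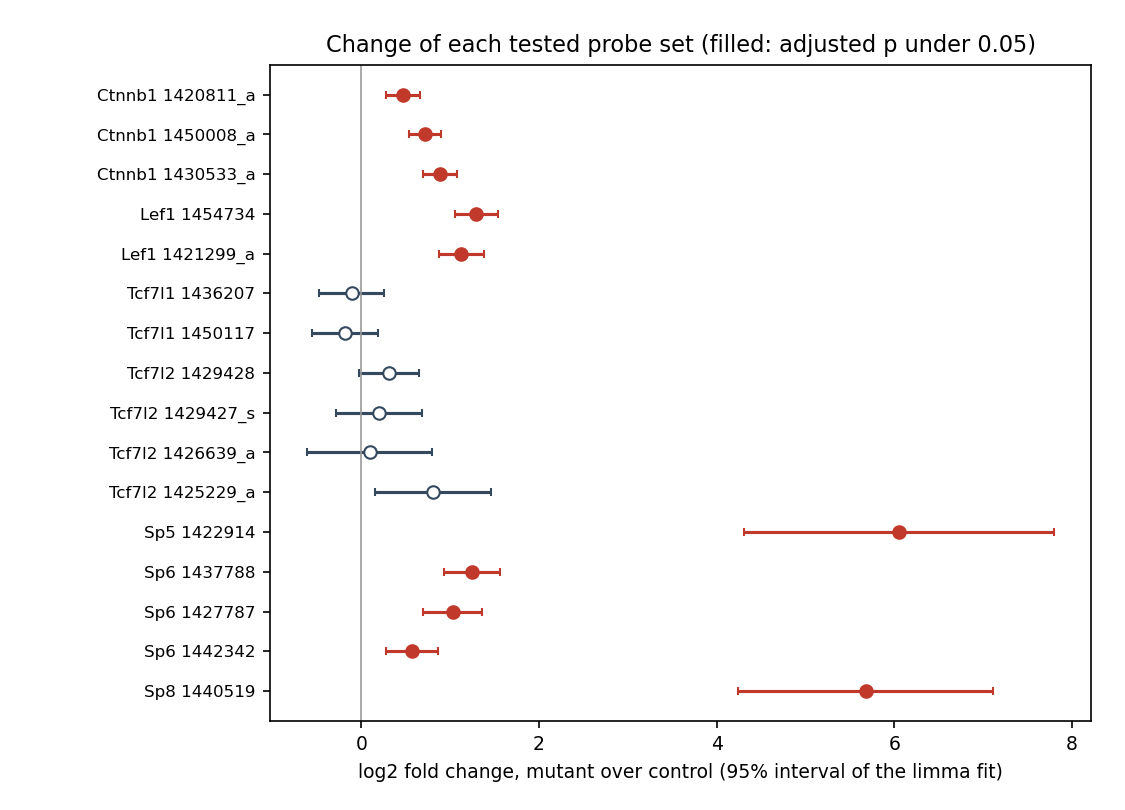
Log2 fold change, mutant over control (horizontal axis), of the 16 tested probe sets, with the 95% interval of the limma fit over 2 mutant and 2 control arrays; filled red points had an adjusted p under 0.05 and open dark blue points did not. The intervals of Ctnnb1, Lef1, Sp5, Sp6 and Sp8 lie above 0, and among the open points only that of Tcf7l2 on 1425229_a_at, 0.16 to 1.47, also does.

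Sp5 and Sp8 were near or below background in controls and read clearly in mutants. Sp5 on 1422914_at read 364 and 433 in mutants, against 15.8 and 2.26 in controls, where control 1 alone lay above its array's 40th percentile, 14.4. The fitted log2 fold change was 6.05 ± 0.75 (limma adjusted p = 0.000560; 95% interval 4.31 to 7.80). With control 2 raised to its own percentile of 14.6 the groups differed 26.2-fold. The fitted size moved with the control arrays: it was 7.46 without control 1 and 4.65 without control 2, and 4.10 with 16 added to every signal, and the call was kept in each of these fits.

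Sp8 on 1440519_at read 120 and 97.8 in mutants, against 1.19 and 3.76 in controls, neither of which was above background. Its signal was at least 7.47-fold higher in mutants, with the controls taken at their percentiles. The fitted log2 fold change was 5.68 ± 0.62 (limma adjusted p = 0.000283), a size that rests on control readings below background. It was 4.85 without control 1, 6.51 without control 2 and 2.76 with 16 added to every signal. For both genes a fold over a control at background depends on how background is treated, and all 4 leave-one-out fits kept the call.

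Sp6 was already well above background in control epidermis and rose on each of its 3 tested probe sets. It read 1953 and 1917 in mutants, against 707 and 940 in controls, on 1437788_at, a log2 fold change of 1.25 ± 0.13 (limma adjusted p = 0.000273), or 2.37-fold. On 1427787_at it read 1125 and 1246 in mutants and 502 and 672 in controls (1.03 ± 0.14, limma adjusted p = 0.00105). On 1442342_at it read 219 and 236 in mutants and 155 and 152 in controls (0.57 ± 0.13, limma adjusted p = 0.00946). Both mutants lay above both controls on all 3, and control 2 read above control 1 on the first 2 of them. The remaining one, 1427786_at, read between 0.704 and 1.92 on the 4 arrays and was not tested.

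With the brightest probe set of each gene, the log2 signal of Sp6 minus that of Ctnnb1, set to 0 at the control mean, was 0.83 and 0.72 in mutants and -0.26 and 0.26 in controls. This difference depended on the probe sets: over all 9 pairs of tested probe sets its mutant minus control value ran between -0.32 and 0.77 and was above 0 in 7, so which of Sp6 and Ctnnb1 changed more was not settled.

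The authors' deposited table, made from a different summary of the probes (GCRMA), held 12 probe sets of the members, each as a ratio to the control mean. In the authors' deposited table Sp5 stood at 92.6 and 79.8 in mutants, against 0.854 and 1.15 in controls. Sp8 stood at 21.4 and 23.7 in mutants, against 1.02 and 0.980 in controls, in the authors' deposited table. The ratio of mutant to control was thus 87.0-fold for Sp5 and 22.5-fold for Sp8 in the authors' deposited table, while the signals gave at least 7.47-fold for Sp8. For Lef1 the authors' deposited table gave 2.75-fold on 1454734_at and 2.44-fold on 1421299_a_at, and 7.69-fold and 8.85-fold on 1436398_at and 1440760_at. Tcf7 was 8.77-fold and 7.58-fold higher in mutants in the authors' deposited table, and Tcf7l2 on 1441756_at was 2.66-fold higher. Sp6 was 2.86-fold, 2.32-fold and 2.28-fold higher in the authors' deposited table, on 1437788_at, 1427787_at and 1442342_at. Ctnnb1 and Tcf7l1 had no probe set there.

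**Figure D3:**
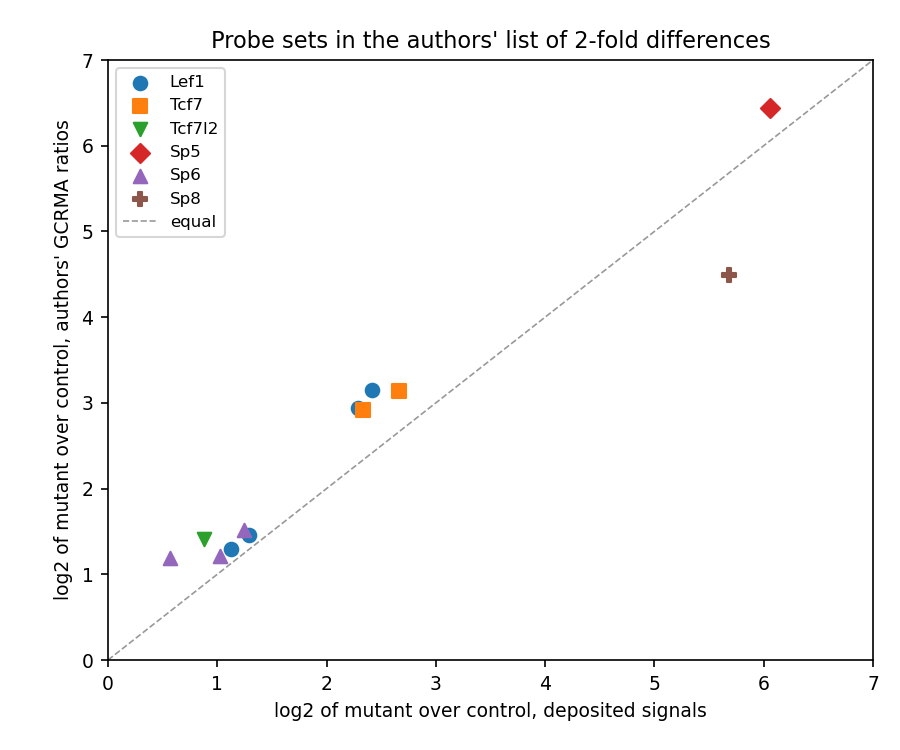
Log2 of mutant over control for the 12 probe sets of the members in the authors' deposited table: the deposited signals on the horizontal axis (difference of group means of log2 signal) and the authors' GCRMA ratios on the vertical axis, with the dashed line where both are equal. All 12 lie above 0 on both axes, in a table that holds only differences of at least 2-fold; Sp8, below background in both controls, lies below the line at 4.49 on the authors' scale against 5.68 in the signals, and the others lie above it.

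For the likeness of pattern, log2 signals were centred per gene and compared over the 4 arrays as a distance, with 1 probe set for each of 12469 genes. Closest to Lef1 were Wnk2, a kinase, and Ctps, an enzyme of nucleotide synthesis, both at a distance of 0.076. Closest to Tcf7 were Csrp1 at 0.080 and Foxn1, the transcription factor lost in nude mice, at 0.091. The Tcf7 profile was that of 1433471_at, known only from the authors' list and so chosen for differing between these same arrays. Sp6 had Shroom3, a regulator of cell shape, at 0.077 and Fbxl5 at 0.11. Many genes share such profiles over 4 arrays: 617 lay within 0.2 of Ctnnb1, 497 of Tcf7l1, 371 of Tcf7l2, 67 of Lef1, 35 of Sp6 and 10 of Tcf7. No gene lay within 0.2 of Sp5 or Sp8, whose nearest genes, Smim31 at 0.51 and Col26a1 at 0.36, also had background signals in controls. The nearest genes were Mrps33 and Lpar6 for Ctnnb1, Fbxo42 and Ndufb10 for Tcf7l1 and Helq and Foxl2 for Tcf7l2. The second nearest were Gimap8 for Sp5 and Svopl for Sp8.

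Other genes that act on beta-catenin were counted by role, with 1 probe set per gene, the one of highest mean signal. Over all 12469 genes 20.6% were higher, 24.5% were lower, and the median log2 fold change was -0.056. The relay of the Wnt signal and the destruction complex, which marks beta-catenin for degradation, had 15 of 16 genes tested, with 5 higher, 1 lower, 9 not past the threshold and a median of 0.22. The kinase gene Csnk1e read 992 and 1038 in mutants, against 287 and 285 in controls (limma adjusted p = 7.02e-06, log2 fold change 1.83 ± 0.10), with both other probe sets of the gene higher too. Amer1, a scaffold of the complex, read 81.6 and 85.8 in mutants and 163 and 153 in controls (log2 fold change -0.91 ± 0.15, limma adjusted p = 0.00223). Dvl1, a relay protein below the Wnt receptor, and Siah1a, a ubiquitin ligase, passed with log2 fold changes of 0.48 ± 0.12 and 0.61 ± 0.15, but their other probe sets did not. The Dvl1 call was lost without control 1, without control 2 or without mutant 1, and the Siah1a call without control 2 or without mutant 1. Both were also lost without the intensity trend (limma adjusted p = 0.0852 for Dvl1 and 0.0902 for Siah1a). The count of 5 fell to 2 without control 1 and to 1 without control 2 or without mutant 1.

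Coactivators that beta-catenin recruits had 16 genes tested, with 5 higher, 2 lower and 9 not past the threshold, and a median log2 fold change of 0.079. Bcl9, the adaptor between beta-catenin and Pygopus, read 490 and 525 in mutants, against 222 and 210 in controls (log2 fold change 1.23 ± 0.11, limma adjusted p = 0.000105). Smarca4, an ATPase of chromatin remodelling, and Crebbp, a histone acetyltransferase, each passed at 0.49, with SEs of 0.08 and 0.09, though the 3 other probe sets of Crebbp did not pass and the Smarca4 call was lost without the intensity trend (limma adjusted p = 0.0506). Kat5, an acetyltransferase, read 264 and 255 in mutants and 342 and 387 in controls (-0.49 ± 0.12, limma adjusted p = 0.0134), its other probe set did not pass, and leaving out control 2 or the intensity trend (limma adjusted p = 0.0659) ended the call. The 5 became 3 without control 2, without mutant 1 or without mutant 2, and the 2 became 0 without control 2 and 1 without any other array.

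Corepressors and inhibitors of TCF/LEF proteins or beta-catenin had 15 genes tested, with 5 higher, 1 lower and 9 not past the threshold, and a median log2 fold change of 0.19. The Groucho gene Tle4, whose protein represses through TCF factors, read 766 and 774 in mutants, against 198 and 204 in controls (limma adjusted p = 6.96e-06, log2 fold change 1.94 ± 0.10), with both other probe sets of the gene higher too. Ctnnbip1, which keeps beta-catenin from TCF proteins, read 466 and 487 in mutants, against 226 and 264 in controls (0.96 ± 0.12, limma adjusted p = 0.000591). Nlk, a kinase that phosphorylates TCF/LEF proteins, was at 0.54 ± 0.09 (limma adjusted p = 0.00317). The repressor gene Hic1 read 17.8 and 22.9 in mutants and 155 and 114 in controls (-2.72 ± 0.25, limma adjusted p = 0.000129). Of the named genes that rose, Tle4, Ctnnbip1 and Nlk are known as brakes on the pathway, whereas Bcl9, Smarca4 and Crebbp are known as helpers of it. Hic1, from the list of corepressors and inhibitors, and Kat5, from the list of coactivators, were lower. The count of 5 was 3 without control 2 or without mutant 1.

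Partners of beta-catenin at the membrane had 7 genes tested, with 2 higher, 4 lower and 1 not past the threshold, and a median log2 fold change of -0.49. P-cadherin, Cdh3, read 830 and 999 in mutants, against 290 and 309 in controls (log2 fold change 1.60 ± 0.12, limma adjusted p = 4.21e-05), although its other, dimmer probe set did not pass. E-cadherin, Cdh1, read 1914 and 2002 in mutants and 3273 and 3125 in controls (-0.71 ± 0.08, limma adjusted p = 0.000399). Ctnnd1, which holds cadherins at the membrane, was at -0.50 ± 0.09 and Ctnnal1, an alpha-catenin relative, at -0.69 ± 0.13. The Ctnnd1 call was lost without the intensity trend (limma adjusted p = 0.0558), and the count of 2 higher was 1 on leaving out any single array.

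Target genes of Wnt/beta-catenin signalling other than the members had 20 of 22 tested, with 17 higher, 1 lower, 2 not past the threshold and a median log2 fold change of 1.37. They are given only to set the members beside them, since that these genes rise in these arrays was known when the list was written. Nkd1, a feedback inhibitor of Wnt signalling, read 1291 and 1373 in mutants, against 17.2 and 20.7 in controls (log2 fold change 6.14 ± 0.15, limma adjusted p = 2.71e-07). Notum, a secreted enzyme that inactivates Wnt ligands, was at least 205-fold higher in mutants, with controls not above background. Bmp4, a secreted growth factor, and Wif1, a secreted Wnt inhibitor, had log2 fold changes of 5.24 ± 0.13 and 4.90 ± 0.14. The changes of Ctnnb1, Lef1 and Sp6 lay below this list's median on every tested probe set. The 2 Lef1 probe sets named only in the authors' list, at log2 differences of 2.29 and 2.42, lay above it. With dim controls taken at their percentiles, Sp5 differed 26.2-fold and Sp8 at least 7.47-fold, which is also above that median. Of the controls, 1 was above background for Sp5 and 0 for Sp8.

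Other Sp and Klf zinc finger factors had 17 of 23 tested, with 3 higher, 6 lower and 8 not past the threshold, and a median log2 fold change of -0.052, next to -0.056 over all genes. Klf6 read 250 and 237 in mutants and 471 and 528 in controls (log2 fold change -1.03 ± 0.11, limma adjusted p = 0.000307), and 3 of its 4 other probe sets also fell. Sp3, a broadly expressed Sp factor, was at -0.59 ± 0.10 and Klf5, a factor of proliferating epithelia, at -0.43 ± 0.08, where the other Klf5 probe set did not pass and the call was lost without the intensity trend (limma adjusted p = 0.0636). Klf9 read 250 and 226 in mutants, against 120 and 135 in controls (0.90 ± 0.14, limma adjusted p = 0.00170), and 2 of its 5 other probe sets rose. The other 2 that rose, named after their values were seen, were Klf13 (0.58 ± 0.11, limma adjusted p = 0.00388) and Sp7, known from bone formation (1.97 ± 0.37, limma adjusted p = 0.00431). Sp7 read 62.7 and 76.1 in mutants, against 12.5 and 24.8 in controls, and only control 2 was above background. With control 1 raised to its percentile the groups differed 3.65-fold.

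**Figure D4:**
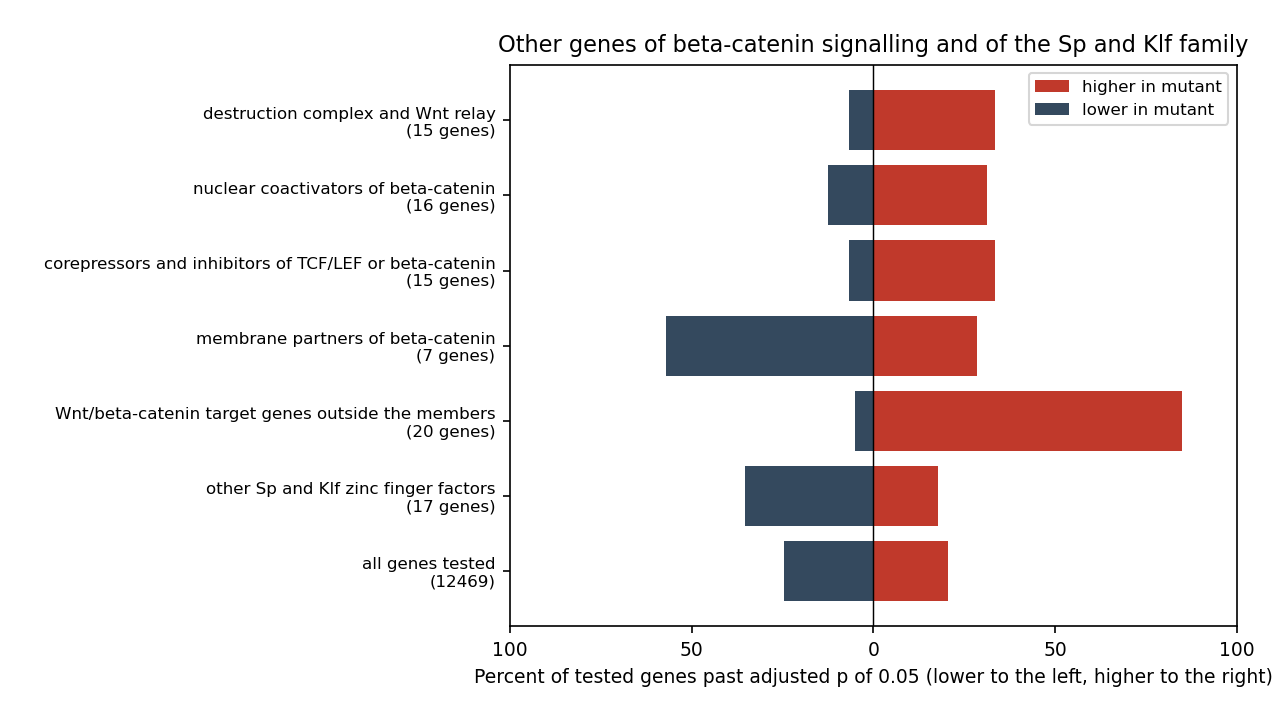
Percent of tested genes (horizontal axis) that were higher in mutant epidermis (red, to the right) or lower (dark blue, to the left) at a limma adjusted p under 0.05, for 6 gene lists and for all 12469 genes, with 1 probe set per gene and 2 mutant and 2 control arrays. The target list reaches 17 of 20 genes higher, and the membrane partners 4 of 7 lower, against 20.6% higher and 24.5% lower over all genes.

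Several cell types of the skin other than keratinocytes are known to use these factors, Lef1 and Tcf7 among them, and markers of some moved with the groups. The keratinocyte markers were present on all 4 arrays, 10 of 10 tested, with 1 higher, 6 lower and a summed signal of 25675 and 27855 in mutants, against 49563 and 49914 in controls. Basal Krt14 fell by 0.35 on the log2 scale and Krt15 by 1.03, whereas Itga6 rose by 0.72 and Krt5 and Trp63 did not pass. Krt1 and Krt10, keratins of the differentiating layers, fell much further, with log2 fold changes of -3.98 and -3.57. All 8 melanocyte markers were higher, with sums of 5189 and 6313 in mutants and 1668 and 1675 in controls, and Tyrp1, a pigment enzyme gene, was not above background in controls. Of 10 markers of T cells and other leukocytes 7 were dim, including Cd3e, Cd3g, Cd3d, Ptprc and Cd7, and the 3 tested had 0 higher and 1 lower (sums over the list of 111 and 118 in mutants and 223 and 196 in controls). Of 10 dermal fibroblast markers 7 were tested, with 1 higher and 2 lower (sums of 3671 and 4129 in mutants and 3443 and 4222 in controls). Dcn, the 1 that rose, made up most of each sum, at 3444 and 3704 in mutants and 2908 and 2900 in controls. The list's median log2 fold change was -1.17. Col1a1, Col1a2 and Col3a1 read 1.84, 118 and 22.9 in control 1, against 107, 376 and 381 in control 2. Col5a1 read 340 and 351 in the same arrays. How evenly dermis was removed between arrays was not tested. Dermal papilla markers had 2 of 7 tested and both higher, Vcan and Crabp1, with sums of 804 and 895 in mutants and 542 and 523 in controls, while Sox2 and 4 others were dim. Merkel cell markers had 3 of 6 tested and 2 higher (180 and 208 in mutants, 60.1 and 60.3 in controls). The 2 were Tmem163 and Piezo2, and Piezo2 read 120 and 143 in mutants, against 7.76 and 11.2 in controls. Tmem163 read 21.2 and 28.5 in mutants, against 1.51 and 0.833 in controls. Neither gene was above background in controls. Both thus entered the test only through the mutant arrays and could not have been called lower. Atoh1 did not pass (log2 fold change -0.53), and Krt20, Isl1 and Sst were dim. Schwann cell and neuron markers had 4 of 7 tested, with 2 higher and 1 lower (1825 and 1767 in mutants, 1268 and 1212 in controls). Ngfr and Tubb3 rose, and Tubb3 read 765 and 819 in mutants, against 25.7 and 17.3 in controls. Erbb3 fell, from 1208 and 1162 in controls to 972 and 839 in mutants, Elavl4 did not pass and S100b was dim. Endothelial and muscle markers had 1 of 6 tested each, and neither passed (endothelial sums 35.3 and 28.8 in mutants and 39.8 and 62.1 in controls, muscle sums 70.2 and 43.8 in mutants and 48.1 and 60.7 in controls). The part of these cell types in the changes of Ctnnb1, Lef1, Tcf7, Sp5, Sp6 and Sp8 was not tested.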

How the data were processed

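Signals of 2 mutant and 2 control arrays were compared. GCOS and MAS5 are named in the submitters' processing notes (versions not given in the sources used here). Intensity as deposited was linear with a trimmed mean of 150 on every array, and was not scaled further. The authors' deposited table holds ratios from GCRMA values, per the file headers, kept where Present on at least 2 arrays and at least 2-fold different, its fold being control over mutant and turned round here.

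The table had 45101 probe sets, 64 of them array controls, which were dropped, and 28434 with a signal above the array's 40th percentile on at least 2 arrays were tested. Where both arrays of a group lay at or below that percentile, the probe set counted as not above background and its fold as a bound. If tested, such a probe set had entered the test only through the other group. Gene names came from the platform annotation (34945 probe sets with 1 gene, 932 with several, 9160 with none), with 34741 symbols updated through RefSeq (GRCm38.p6). Log2 signals were fitted with limma 3.58.1 in R 4.3.3 (intensity trend, two-sided, Benjamini-Hochberg over all probe sets, threshold 0.05). Only this fit was tested on simulated data. The number of arrays, 2 per group, limits the precision, and the calls rest on spread pooled over probe sets. The arrays shared 1 fluidics station, 1 scanner and 1 scan day, each on its own module. Same-numbered mutant and control arrays did not deviate together (correlation 0.0145), so they were not paired. Named genes were all probe sets of the members, up to 4 genes per list with the largest moderated t, and the 2 nearest genes per member. The members and lists were chosen with earlier results of these data known.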

Additional observations from a re-analysis of the deposited data

How the results depend on the processing

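Member values were recomputed under 10 alternatives, giving 160 values: 152 kept direction and side of the threshold, 1 lost its call, 2 gained one (Tcf7l2 on 1425229_a_at), and 5, none of them past the threshold, turned sign. Each is given with its probe set above, except Tcf7l2 on 1426639_a_at, which was -0.018 with median centring and between -0.22 and 0.41 without 1 array. Without 1 array, Tcf7l1 on 1436207_at ranged from -0.27 to 0.057 and Tcf7l2 on 1429427_s_at from -0.089 to 0.50. The count of higher member probe sets lay between 9 and 11, and 0 were lower, in every alternative. The replicate block, with the sample number as a block, left the members at 10 higher and 0 lower, and gave 5536 higher and 5989 lower over all probe sets, against 5386 and 5824. Median centring moved the median of all probe sets to -0.14 from -0.03, and the split to 4464 higher and 7059 lower.

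Counts of the lists moved more. With median centring 3 destruction complex genes, 3 coactivators and 1 membrane partner were higher. Without the intensity trend these were 1, 2 and 1, and 2 membrane partners, 1 coactivator and 3 Sp and Klf factors were lower. With the second brightest probe set per gene, 1 destruction complex gene and 0 membrane partners were higher, and 2 corepressors and 1 coactivator were lower. Quantile normalization gave 2 lower destruction complex genes, and the replicate block or no filter on dim probe sets gave 1 lower coactivator. Without 1 array the higher destruction complex genes ranged from 1 to 5, higher coactivators from 3 to 4, lower coactivators from 0 to 1, higher corepressors from 3 to 5, and higher membrane partners stayed at 1. Of 240 values of named list genes 12 lost their call, of Dvl1, Siah1a, Kat5, Smarca4, Ctnnd1 and Klf5, and 0 turned sign. The cause of these moves was not tested. Signals near background limit the sizes given for Sp5 and Sp8.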
